A study of Mus musculus with 8 samples.

Results

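The loss of SDHA was compared between the 2 T cell lineages after stimulation, in cells selected on their own transcripts for a clear lineage. A cell of the deposited CD8 class was kept as strict CD8 where it held a UMI of Cd8a or Cd8b1 and none of Cd4 or Trdc. A cell of the deposited CD4 class was kept as strict CD4 where it held a UMI of Cd4 and none of Cd8a, Cd8b1, or Trdc. A UMI (unique molecular identifier) stands for 1 captured transcript. This left 4189 of the 6832 stimulated cells and of the 12846 cells in all, 2428 of them strict CD4 and 1761 strict CD8. The cells were chosen by the measured UMIs of these 4 genes, and the class by clusters of expression, so the 4 genes are described here and not tested. The other genes took part in the clustering too, and only their response to genotype was tested, not their level between the classes.

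Splenic T cells were isolated from C57BL/6 mice of 8 to 12 weeks and sequenced in 8 libraries of the 10x Genomics 3′ assay, 2 for each combination of genotype and state. Only the 4 stimulated libraries are used here, in which dead cells had been removed after 48 hours of stimulation through CD3 and CD28 (antibodies at 5 and 2.5 μg/mL). SDHA-KO cells came from Sdha fl/fl CD4-Cre mice, in which the Cd4 promoter drives Cre and deletes in precursors of both lineages. The labels state neither whether WT mice carried floxed alleles or Cre nor whether the 2 libraries of a genotype came from separate mice, so p-values measure the spread between libraries, which may be technical.

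SDHA is the catalytic subunit of complex II, which oxidizes succinate to fumarate in the TCA cycle and passes the electrons to ubiquinone in the electron transport chain. Activated T cells leave quiescence by turning on Myc, ribosome production, glycolysis, and sterol synthesis, and then divide. CD8 cells give rise to cytotoxic effectors armed with perforin and granzymes, and CD4 cells to helper cells that differ in their cytokines, so a metabolic lesion can be read against a pair of differentiation programs.

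UMIs were summed per library and class, and a level is given as CPM, counts per 1000000 UMIs of the sum after TMM scaling (trimmed mean of M values). Each lineage has an SDHA-KO effect, the log2 ratio of SDHA-KO to WT. The quantity of interest is the CD8 effect minus the CD4 effect, called the difference below, in which a positive value means a larger rise or a smaller fall in CD8 cells. It was tested with edgeR's quasi-likelihood test over all 13734 genes that passed a filter on low counts, with the library as a block, and called at a Benjamini-Hochberg adjusted p under 0.05. A gene called higher or lower in CD8 cells has a positive or negative difference, whatever its level in the classes. The block leaves 2 residual degrees of freedom, and an exact permutation of 2 libraries against 2 could not go below p = 0.33.

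The strict cells were unevenly spread. WT libraries held 736 and 709 strict CD8 cells, and SDHA-KO libraries held 169 and 147. Strict CD4 cells numbered 487 and 542 in WT and 637 and 762 in SDHA-KO. Of the deposited CD8 class, 87.2% and 85.0% met the rule in WT against 33.1% and 37.1% in SDHA-KO, whereas the shares of the CD4 class were 56.7%, 56.0%, 56.0%, and 59.3%. A UMI of Trdc, which encodes the constant δ chain of the receptor of γδ T cells, was found in 59.1% and 56.1% of the SDHA-KO CD8 class and in 3.67% and 4.92% of the WT CD8 class. Of the SDHA-KO CD8 class, 42.3% and 37.6% held no Cd8a or Cd8b1 UMI. At the edge of the rule, between 2.04% and 5.03% of strict CD8 cells and between 14% and 24% of strict CD4 cells of a library held a single coreceptor UMI. Between 16.2% and 16.6% of the CD4 class and between 2.49% and 4.30% of the CD8 class were left out by a single UMI.

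**Figure D1:**
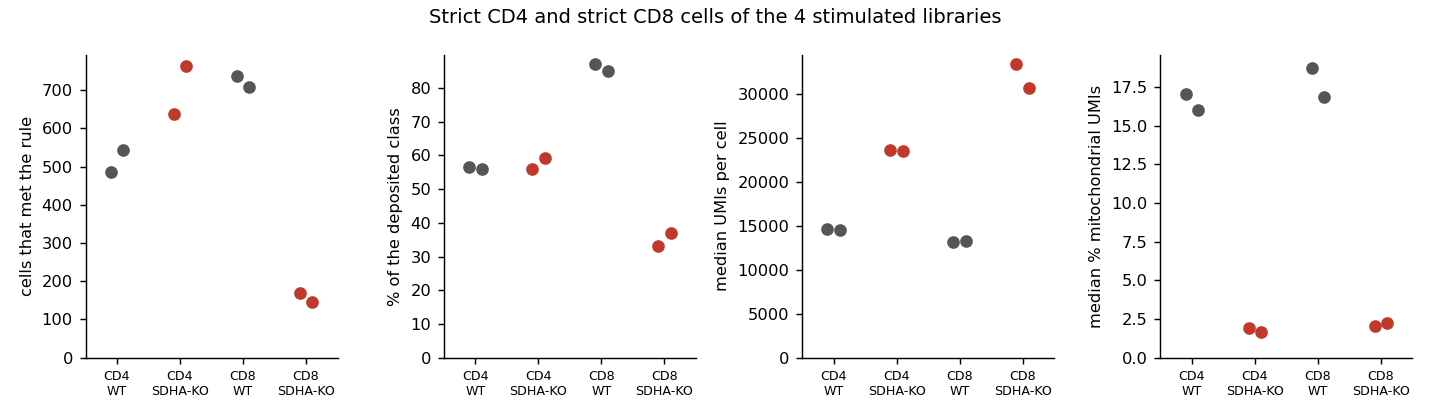
Strict cells per library (points, 2 libraries per group) by class and genotype, as cell number, share of the deposited class, median UMIs per cell, and median percentage of UMIs on mitochondrially encoded genes. The SDHA-KO CD8 group stands apart with 169 and 147 cells and the highest median UMIs, and mitochondrial percentages were lower in SDHA-KO cells of both classes.

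The sums held between 4921730 UMIs, in SDHA-KO CD8 cells of replicate 2, and 19114451 UMIs, so a gene at 20 CPM rests on 98.4 UMIs in the smallest, a counting error of 10.1%. Median UMIs per cell were 13201.5 and 13329 in WT and 33462 and 30688 in SDHA-KO CD8 cells, and 14655 and 14499.5 in WT and 23579 and 23563 in SDHA-KO CD4 cells. The median mitochondrial percentage was 18.7% and 16.8% in WT and 2.07% and 2.27% in SDHA-KO CD8 cells, and 17% and 16% in WT and 1.92% and 1.67% in SDHA-KO CD4 cells. Between 70.7% and 76.2% of WT CD8 cells belonged to the subsets that the deposited table calls Tcm (central memory), against 24.3% and 27.9% of SDHA-KO CD8 cells. The CD4 shares were 66.1% and 65.3% against 23.4% and 20.1%. Depth, mitochondrial percentage, and subset therefore moved with genotype in both lineages, and their part in the results was not tested beyond the fits restricted by them. A pair of libraries shared at most 2 cell barcodes.

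The genes that chose the cells are given as a description. Cd4 stood at 124 and 123 CPM in WT and 189 and 176 CPM in SDHA-KO CD4 cells, and at 0 in CD8 cells by the rule. Cd8a stood at 176 and 193 CPM in WT and 185 and 244 CPM in SDHA-KO CD8 cells, and Cd8b1 at 301 and 339 and 251 and 308 CPM. Gzmb, the granule protease of killer cells, separated the classes in every library, at 3687 and 4664 CPM in WT and 4685 and 4627 CPM in SDHA-KO CD8 cells against 257 and 324 CPM in WT and 319 and 284 CPM in SDHA-KO CD4 cells. Sums over marker lists are per 1000000 UMIs without TMM scaling. Of other cell types, the 15 γδ T cell markers in the file, 2 of them at 0 in every sum, added up to between 1.42 and 6.43 CPM in WT sums, 6.35 and 9.54 CPM in SDHA-KO CD4 cells, and 11.6 and 17.9 CPM in SDHA-KO CD8 cells. The 12 NK and innate lymphoid markers reached at most 11.4 CPM, while the 16 B cell markers held between 96.6 and 157 CPM without separating the genotypes. For the 14 myeloid markers the sums were between 82.4 and 90.5 CPM in WT and between 148 and 192 CPM in SDHA-KO cells, nearly all of it Cst3, and 6 of the markers were at 0 throughout. The 9 erythroid and platelet markers reached at most 4.15 CPM. The 3 αβ T cell receptor genes held between 1212 and 1314 CPM in WT and between 1801 and 1988 CPM in SDHA-KO sums. The 10 regulatory T cell markers held between 1254 and 1473 CPM in CD4 sums, 1449 and 1565 CPM in WT CD8 sums, and 1319 and 1046 CPM in SDHA-KO CD8 sums. The part of these cells in the results was not tested.

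Sdha fell in both lineages. Sdha (chr13:74322255-74350240, mm10) stood at 81.6 and 77.6 CPM in WT and 28.1 and 28.0 CPM in SDHA-KO CD4 cells, and at 86.4 and 84.9 CPM in WT and 34.1 and 31.1 CPM in SDHA-KO CD8 cells. Every SDHA-KO sum lay below every WT sum. The effect was log2 -1.5 in CD4 (adjusted p = 2.9e-05) and log2 -1.39 in CD8 cells (adjusted p = 6.9e-05), and the difference of 0.11 (SE 0.109, adjusted p = 0.57, edgeR) was not called. UMIs of the 3′ assay do not show whether the remaining transcripts held the deletion. Over all cells of the deposited classes, with no condition on coreceptor or Trdc UMIs, the Sdha difference was 0.92.

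Both lineages changed widely with the loss of SDHA. In CD8 cells, 3027 genes rose (22% of those tested) and 2663 fell (19.4%). In CD4 cells, 2905 rose (21.2%) and 2511 fell (18.3%). These comparisons rest on the same 4 libraries. In 59 of the 3683 genes called in both lineages, the directions were opposite. The difference between the lineages was called for 1432 genes, 733 of them higher in CD8 (5.34% of all genes tested) and 699 lower (5.09%), and 3573 genes had an unadjusted p under 0.05. In 272 of the called genes it was at least 2-fold. Within the 1432, the effect had the same sign in both lineages for 875, larger in CD8 for 642 of them and larger in CD4 for 233, and opposite signs for the other 557. Scaling by the total UMIs alone, without TMM, moved the balance to 543 higher and 937 lower, and keeping every gene with a UMI moved it to 714 and 971. DESeq2 called 358 higher and 208 lower, and the mean of log values per cell, which weighs every cell alike, gave 871 and 491. The latter averages log-transformed UMIs per 10000 of each cell, so the size of its values is on another scale than log2 ratios of sums.

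**Figure D2:**
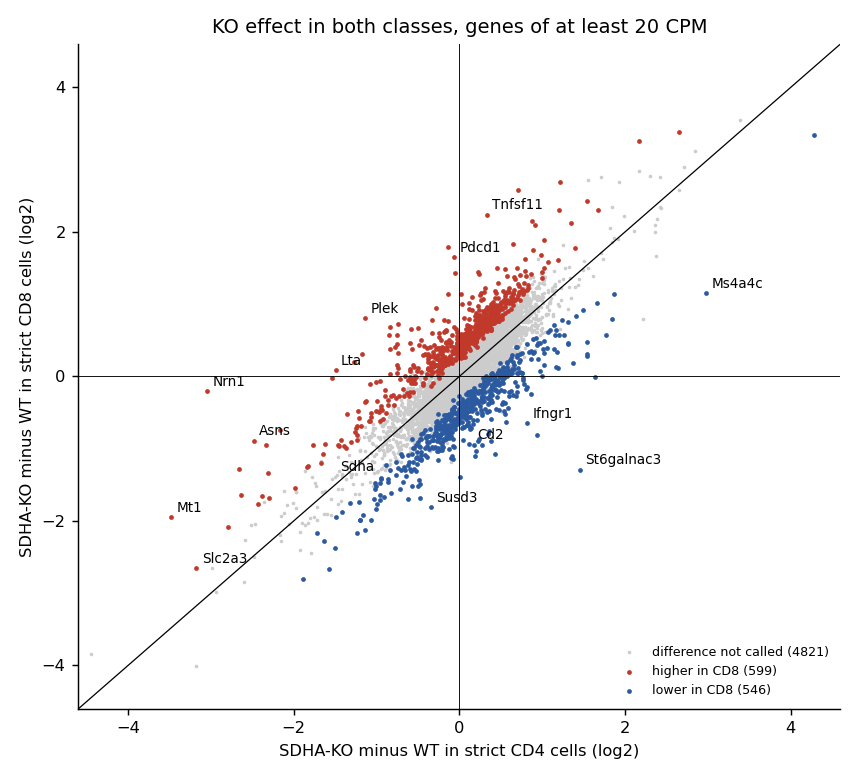
SDHA-KO effect (log2 ratio of SDHA-KO to WT) in strict CD4 cells (x axis) and strict CD8 cells (y axis) for the 5966 genes of at least 20 CPM, 4 of which lie outside the axes. The line marks equal effects. Of these genes, 599 were called higher in CD8 (red), 546 lower (blue), and 4821 were not called (grey), with Sdha close to the line.

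Among the largest differences in favor of CD8 cells were signaling and effector genes that rose in SDHA-KO CD8 cells and did not rise in SDHA-KO CD4 cells. Plek (chr11:16971206-17008718), which encodes the protein kinase C substrate pleckstrin, stood at 33.5 and 27.8 CPM in WT and 12.9 and 14.8 CPM in SDHA-KO CD4 cells, and at 36.9 and 40.5 CPM in WT and 62.1 and 73.6 CPM in SDHA-KO CD8 cells. It fell in 1 lineage and rose in the other with no overlap of genotypes in either, a log2 difference of 1.95 (SE 0.150, adjusted p = 0.00024, edgeR). Pdcd1 (chr1:94038305-94052553), the gene for the inhibitory receptor PD-1, stood in CD4 cells at 20.2 and 19.1 CPM in WT and 16.8 and 20.6 CPM in SDHA-KO, and went from 16.6 and 16.4 to 36.1 and 68.9 CPM in CD8 cells. Its difference was 1.71 (SE 0.189, adjusted p = 0.00094, edgeR), with both SDHA-KO CD8 sums above every other sum. Rgs16, a brake on G protein signaling, had the same arrangement, at 18.5 and 19.0 CPM in WT CD4 cells, 13.6 and 20.1 in SDHA-KO CD4 cells, 20.9 and 25.7 in WT CD8 cells, and 69.7 and 91.4 in SDHA-KO CD8 cells (difference 1.95, adjusted p = 0.00017).

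Tnfsf11, which encodes the TNF family ligand RANKL, stood in WT CD8 cells at 16.0 and 10.8 CPM, and reached 49.8 and 77.6 CPM in SDHA-KO CD8 cells. In CD4 cells its genotypes overlapped, at 67.1 and 43.1 against 46.0 and 91.1 CPM, and the difference was 1.96 (SE 0.134, adjusted p = 0.00017, edgeR). Pcyt1a, the regulated enzyme of phosphatidylcholine synthesis, rose in both lineages, from 7.41 and 6.17 to 11.2 and 11 CPM in CD4 and from 9.23 and 11.5 to 49.1 and 75.9 CPM in CD8 cells (difference 1.87, adjusted p = 0.0026).

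Other genes of this group fell in CD4 cells and fell less, or had no called change, in CD8 cells. Lta, the gene for lymphotoxin α, went from 177 and 154 to 46.3 and 70.5 CPM in CD4 cells and stood between 179 and 202 CPM in all 4 CD8 sums (difference 1.60, SE 0.131, adjusted p = 0.00026). Setbp1, which encodes a binding partner of the SET protein, fell from 53.6 and 51.8 to 17.9 and 18.3 CPM in CD4 cells, while the CD8 sums overlapped at 84.8 and 78.1 against 76.7 and 83.5 CPM (difference 1.52, adjusted p = 0.00017). Asns (chr6:7675165-7693209), asparagine synthetase, fell in both, from 95.9 and 78.8 to 17.5 and 13.8 CPM in CD4 cells and from 76.6 and 72.6 to 56.5 and 22.5 CPM in CD8 cells, where the SDHA-KO libraries lay far apart (difference 1.52, SE 0.220, adjusted p = 0.0033). Without SDHA-KO replicate 1 that difference was 0.93.

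Mt1, a metallothionein, also fell less in CD8 cells, at 279.6 and 334 CPM in WT CD4 cells, 39.6 and 16.1 in SDHA-KO CD4 cells, 308 and 622 in WT CD8 cells, and 165 and 73.8 in SDHA-KO CD8 cells (difference 1.59, adjusted p = 0.0030). Nrn1 (chr13:36725622-36734477), the gene for the membrane-anchored protein neuritin, had the largest value of the 12 genes that the selection rule gave, 2.86 (SE 0.347, adjusted p = 0.0015, edgeR). Its fall in CD4 cells was even, from 59.4 and 47.2 to 5.85 and 6.93 CPM, but the SDHA-KO CD8 sums were 8.39 and 34.0 CPM against 26.1 and 21.0 in WT, so the genotypes overlapped in CD8 cells. Rgs1 and Mpzl3 completed these 12, with differences of 1.5 and 1.52, and both fell in CD4 and rose in CD8 cells.

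**Figure D3:**
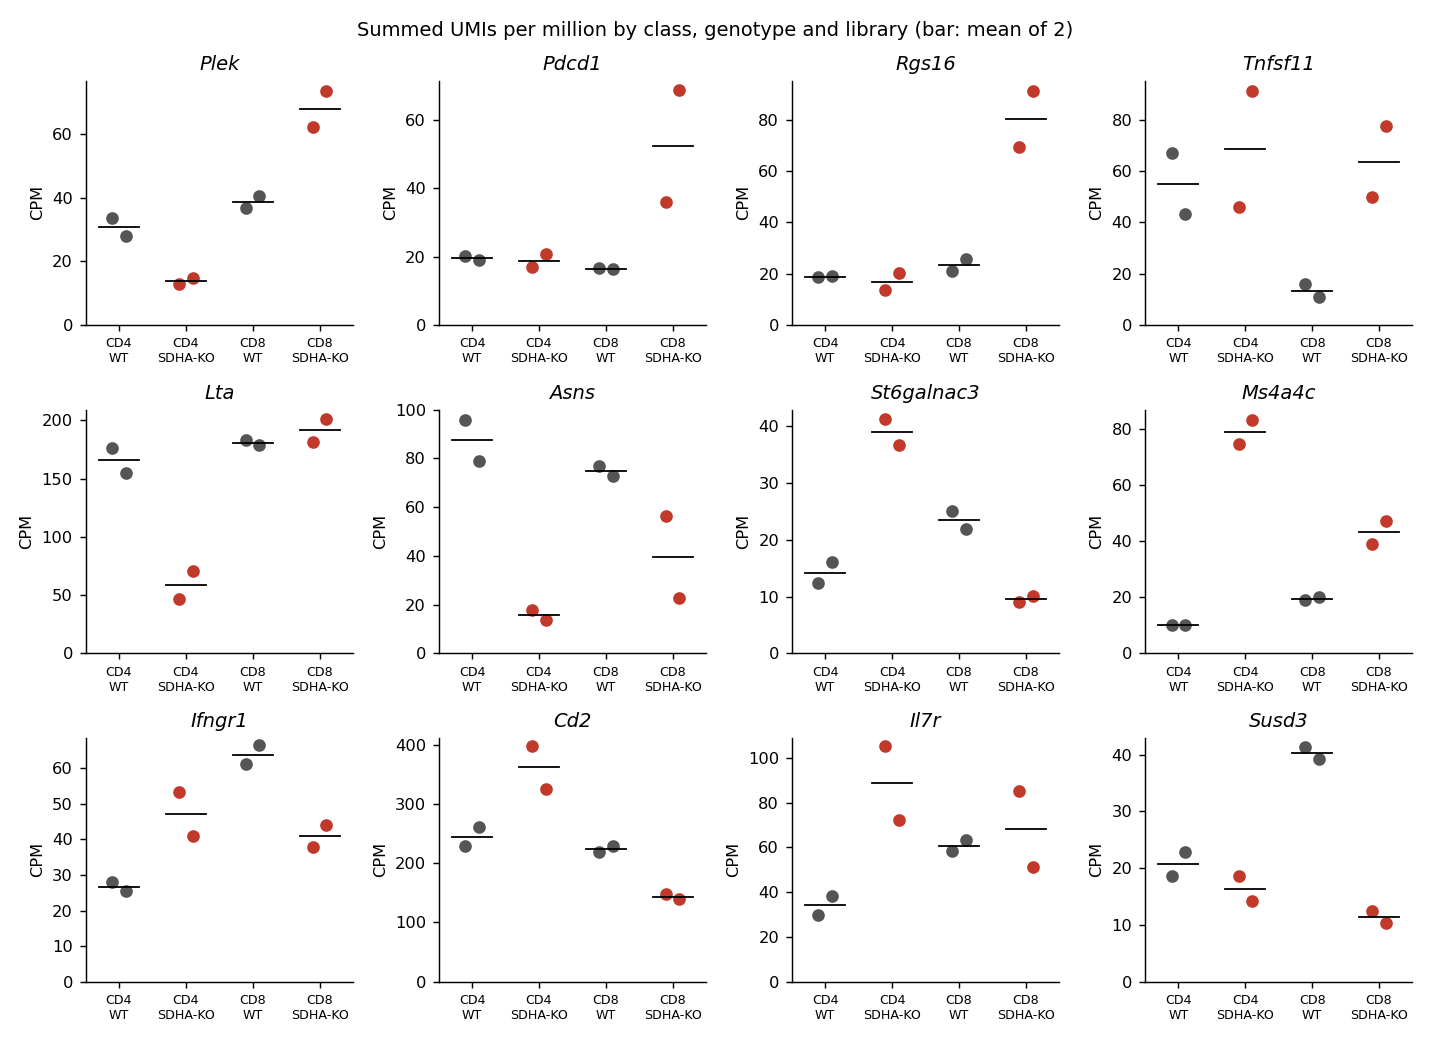
CPM per sum (points, 2 libraries per group; bar, mean) for 12 genes by class and genotype, each axis starting at 0. Plek, Pdcd1, Rgs16, and Tnfsf11 were higher in both SDHA-KO CD8 sums than in WT CD8 sums, Lta fell in CD4 cells, Asns fell in both, and St6galnac3, Ifngr1, and Cd2 rose in CD4 and fell in CD8 cells.

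In the other direction stood genes that rose in SDHA-KO CD4 cells and rose less, or fell, in SDHA-KO CD8 cells. St6galnac3 (chr3:153198274-153725133), a sialyltransferase of glycolipids and glycoproteins, went from 12.4 and 16.0 to 41.3 and 36.6 CPM in CD4 cells and from 25.0 and 21.8 to 9.07 and 10.1 CPM in CD8 cells. WT CD8 sums lay above WT CD4 sums and SDHA-KO CD8 sums below SDHA-KO CD4 sums, a log2 difference of -2.75 (SE 0.218, adjusted p = 0.00024, edgeR). St8sia4, another sialyltransferase, also rose in CD4 and fell in CD8 cells, at 27.0 and 22.6 CPM in WT CD4 cells, 35.2 and 31.4 in SDHA-KO CD4 cells, 17.3 and 16.6 in WT CD8 cells, and 7.70 and 8.46 in SDHA-KO CD8 cells (difference -1.51, adjusted p = 0.0012). Ms4a4c, a membrane protein of the MS4A family, rose in both lineages but more in CD4, from 9.95 and 10.0 to 74.4 and 83.1 CPM against 18.9 and 19.9 to 39.0 and 47.2 CPM in CD8 cells (difference -1.83, SE 0.123, adjusted p = 0.00017).

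Ifngr1 (chr10:19591949-19610229), the ligand-binding chain of the interferon γ receptor, rose from 27.9 and 25.6 to 53.2 and 41 CPM in CD4 cells and fell from 61.2 and 66.5 to 37.8 and 43.9 CPM in CD8 cells. The WT lineages differed in level and the SDHA-KO lineages overlapped, a log2 difference of -1.46 (SE 0.173, adjusted p = 0.0012, edgeR). Cd2, an adhesion and costimulatory receptor, also rose in CD4 and fell in CD8 cells, at 229 and 260.2 CPM in WT CD4 cells, 398 and 325 in SDHA-KO CD4 cells, 218 and 229.5 in WT CD8 cells, and 148 and 139 in SDHA-KO CD8 cells (difference -1.20, adjusted p = 0.00024). So did H2-DMa, a chaperone of MHC class II peptide loading, with log2 effects of 0.38 in CD4 and -0.89 in CD8 cells (difference -1.28, adjusted p = 0.00066). Castor1, the arginine sensor of the mTORC1 pathway, rose from 13.6 and 19.0 to 64.9 and 37.2 CPM in CD4 cells, with SDHA-KO CD8 sums of 14.5 and 4.54 CPM on either side of WT (difference -1.70, adjusted p = 0.0029).

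Susd3 and Adam19, a metalloprotease gene, fell in CD8 cells without a called change in CD4 cells. Susd3 went from 41.4 and 39.2 to 12.5 and 10.3 CPM in CD8 cells, against 18.7 and 22.8 and 18.6 and 14.2 CPM in CD4 cells (difference -1.48, adjusted p = 0.0015). Adam19 went from 46.7 and 40.7 to 15.7 and 17.7 CPM in CD8 cells (difference -1.39, adjusted p = 0.0051). Arhgef18 likewise fell in CD8 cells without a called change in CD4 cells (difference -1.30). Tmem108 and Ctsw rose in CD4 cells without a called change in CD8 cells (difference -1.79 and -1.25). Each of them was also in the group of 12 genes that the selection rule gave in this direction. The largest value of the group was that of the helper cytokine Il13, which stood at 0.423 and 0.636 CPM in WT CD4 cells, 146 and 10.2 in SDHA-KO CD4 cells, 4.72 and 0.677 in WT CD8 cells, and 55.5 and 7.43 in SDHA-KO CD8 cells, with SDHA-KO replicate 1 the highest in both classes. Its difference of -3.50 (SE 0.608, adjusted p = 0.0072, edgeR) turned to 1.31 over all cells of the deposited classes.

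Of the 59 genes that changed in opposite directions, all 59 were also called for the difference, 27 of them up in CD8 and down in CD4 cells and 32 the reverse. The difference is drawn from the same sums as the effects, so its call adds no separate support for these genes. Besides Plek, Mpzl3, and Rgs1, the first kind held Hacd1, an enzyme of very long chain fatty acid synthesis, the activation-induced nuclear receptor gene Nr4a2, and Hivep3, a zinc finger transcription factor. Nr4a2 stood at 61.8 and 55.0 CPM in WT CD4 cells, 28.6 and 40.4 in SDHA-KO CD4 cells, 71.2 and 70.1 in WT CD8 cells, and 91.1 and 120.0 in SDHA-KO CD8 cells (difference 1.34, SE 0.101, adjusted p = 0.00024). Hacd1 had log2 effects of -0.85 in CD4 and 0.58 in CD8 cells (difference 1.43, adjusted p = 0.00057), and Hivep3 of -0.76 and 0.45 (difference 1.20, adjusted p = 0.00024). In the second kind, next to St6galnac3, St8sia4, Ifngr1, H2-DMa, and Cd2, was Mgst2, a microsomal glutathione transferase, with 0.36 and -0.75 (difference -1.11, adjusted p = 0.0046). Without WT replicate 1 the 59 genes were 22, without WT replicate 2 they were 32, without SDHA-KO replicate 1 they were 22, and without SDHA-KO replicate 2 they were 36.

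Gene lists written for the pathways of T cell activation and metabolism were read by counts, against the 5.34% of all genes that were called higher and the 5.09% called lower, and a median difference of -0.02 over all genes.

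**Figure D4:**
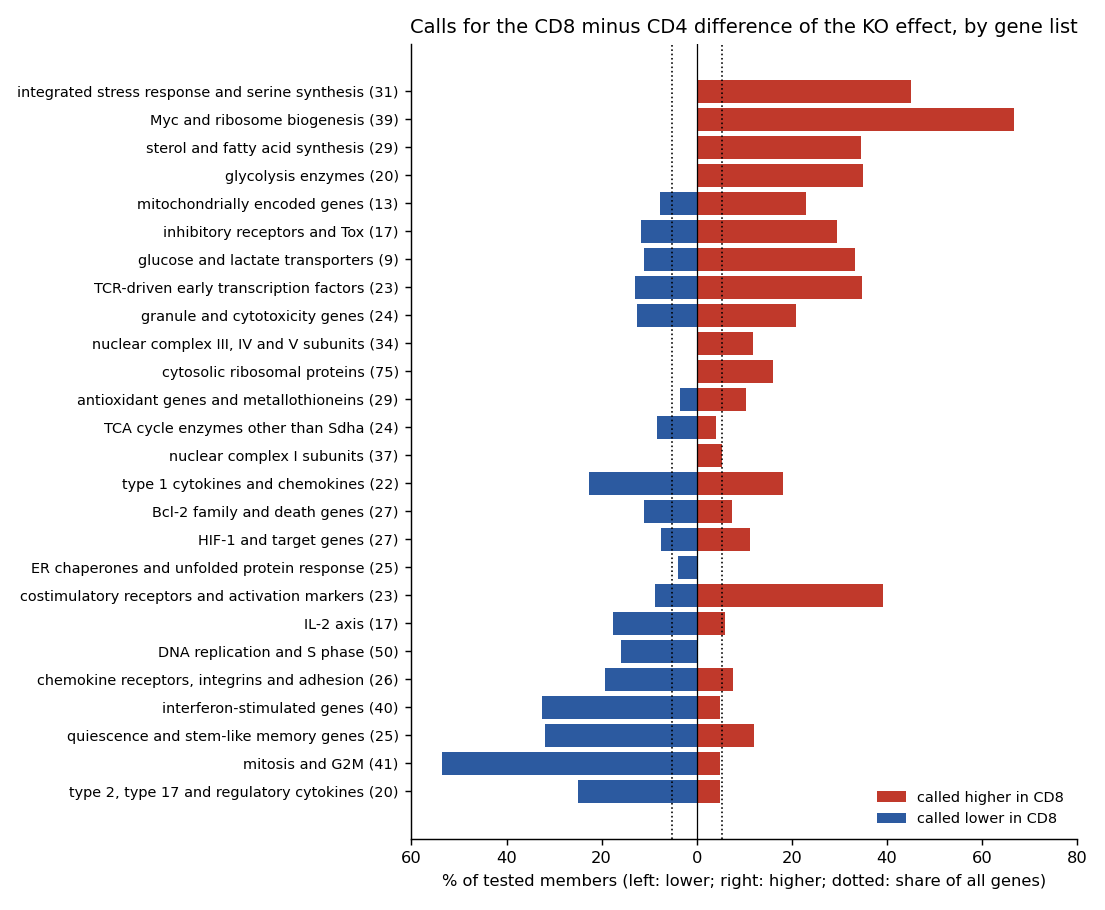
Share of the tested members of 26 gene lists (member number in parentheses) whose difference was called higher (red, right) or lower (blue, left) in CD8 cells, ordered by the median difference of the list. Dotted lines mark the shares of all genes, 5.34% and 5.09%. Ribosome biogenesis has the largest share called higher and mitosis the largest called lower.

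Most genes of Myc and ribosome biogenesis rose in SDHA-KO CD8 cells, and fewer of them in SDHA-KO CD4 cells. Of its 39 tested members, 26 were called higher for the difference and 0 lower, with a median of 0.40, and without SDHA-KO replicate 1 the count was 13. In CD8 cells, 36 of the 39 rose with the loss of SDHA and 0 fell, whereas 21 rose and 1 fell in CD4 cells. Myc, the transcription factor that drives growth after activation, stood at 79.8 and 98.8 CPM in WT CD4 cells, 99.4 and 113 in SDHA-KO CD4 cells, 67.8 and 84.0 in WT CD8 cells, and 132 and 132 in SDHA-KO CD8 cells (difference 0.56, SE 0.0923, adjusted p = 0.0061). Ppan, a factor of the large ribosomal subunit, went from 58.2 and 60.4 to 109 and 112 CPM in CD8 cells and stood at 53.7 and 52.9 against 59.2 and 69.9 CPM in CD4 cells (difference 0.63, adjusted p = 0.0051). Srm, spermidine synthase, rose in both, to 183 and 225 CPM in SDHA-KO CD4 cells and 402 and 401 CPM in SDHA-KO CD8 cells from 94.8 and 99.5 and 137 and 131 CPM. Npm1, nucleophosmin, was the exception that fell in CD4 cells, from 4113 and 3950.0 to 2579 and 2656 CPM, and its CD8 sums were 3745 and 3709 against 3727 and 3507 CPM. Of the 75 cytosolic ribosomal proteins, whose reads near-identical pseudogenes can share, 12 were called higher and 0 lower, with differences between 0.21 and 0.39, and that count ran from 0 to 39 over the alternatives tried. It was 4 without WT replicate 1, 27 without WT replicate 2, and 3 without SDHA-KO replicate 1.

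Most amino acid stress genes fell in both lineages, and many of them fell less in CD8 cells. Of 31 members of the list of the integrated stress response and serine synthesis, 14 were called higher for the difference and 0 lower, with a median of 0.44. In CD8 cells 18 fell and 3 rose, and in CD4 cells 23 fell and 2 rose. Atf4, the transcription factor of this response, went from 143 and 142 to 111 and 106 CPM in CD4 cells and from 149 and 163 to 197 and 184 CPM in CD8 cells (difference 0.68, SE 0.0830, adjusted p = 0.0015). Chac1, a glutathione-degrading enzyme, and Cth, of cysteine synthesis, had differences of 1.69 and 1.49 (adjusted p = 0.029 and 0.017) at levels of 20 CPM and less. Of the serine pathway, Phgdh, Psat1, Psph, Shmt1, Shmt2, and Mthfd2 were all called higher, with differences between 0.40 and 0.58. Without SDHA-KO replicate 1 the median was 0.28. In the mean of log values per cell 11 were called higher and 1 lower, and its median of 0.05 is on another scale than 0.44.

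Most sterol and fatty acid synthesis genes fell in both lineages. Of 29 members, 10 were called higher for the difference and 0 lower (median 0.29), 26 fell in CD8 cells, and 28 fell in CD4 cells. Idi1, an isomerase of the isoprenoid pathway, fell from 155 and 158 to 78.5 and 107 CPM in CD4 cells and stood at 118 and 123 against 125 and 144 CPM in CD8 cells (difference 0.92, SE 0.0957, adjusted p = 0.00075). Fasn, fatty acid synthase, changed in opposite directions, from 40.0 and 40.6 to 31.0 and 34.0 CPM in CD4 and from 54.0 and 45.4 to 69.7 and 64.8 CPM in CD8 cells (difference 0.75, adjusted p = 0.0072). Without WT replicate 1 the count called higher was 4.

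Most glycolytic enzymes fell in both lineages. Of 20 enzymes, 7 were called higher for the difference and 0 lower (median 0.23), 14 fell in CD8 cells, and 18 fell in CD4 cells. Hk2, the inducible hexokinase, went from 203 and 196 to 82.0 and 64.1 CPM in CD4 cells and from 230.0 and 221 to 127 and 104 CPM in CD8 cells (difference 0.49, SE 0.0810, adjusted p = 0.0061). Ldha, which reduces pyruvate to lactate, fell in CD4 cells, from 1652 and 1712 to 1315 and 1166 CPM, and its genotypes overlapped in CD8 cells, at 1459 and 1687 against 1601 and 1348 CPM (difference 0.35, adjusted p = 0.015, edgeR). The Ldha call was lost in the mean of log values per cell, without the top 5% of UMI totals, in the Tcm subsets, and without the library block. Ldhb rose in both lineages, with log2 effects of 1.35 and 2.12, and its difference of 0.78 turned to -0.20 over the deposited classes. The glucose transporter Slc2a1 fell in both, -1.41 in CD4 and -1.38 in CD8 cells, with a difference of 0.04 (SE 0.113, adjusted p = 0.88, edgeR). Slc2a3, another glucose transporter, fell from 372 and 385 to 47.4 and 36.6 CPM in CD4 and from 279 and 344 to 60.1 and 37.7 CPM in CD8 cells (difference 0.50, adjusted p = 0.035, edgeR). The Slc2a3 call was lost with all sums thinned to the size of the smallest and under 10% mitochondrial UMIs. It was also lost in the Tcm and in the Tem subsets, and without the library block. Without the cells in the top 5% of UMI totals the count of enzymes called higher was 3. Of the 9 glucose and lactate transporters, 3 were called higher and 1 lower, against 0 and 1 without WT replicate 1 and 1 and 1 without SDHA-KO replicate 1. Of the 27 genes of HIF-1 and its targets, 21 fell in each lineage, 3 were called higher for the difference, and 2 lower, against 1 and 1 without SDHA-KO replicate 1 and 5 and 9 over the deposited classes. Hif1a was one of the latter, at 232 and 257 CPM in WT CD4 cells, 496 and 334 in SDHA-KO CD4 cells, 205 and 222 in WT CD8 cells, and 261 and 178 in SDHA-KO CD8 cells (difference -0.72, adjusted p = 0.00064).

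All 13 mitochondrially encoded genes of the respiratory chain fell in both lineages, with 3 called higher for the difference and 1 lower. These counts were 5 and 0 without WT replicate 1, 5 and 2 without WT replicate 2, 7 and 0 without SDHA-KO replicate 1, 3 and 3 without SDHA-KO replicate 2, and 10 and 1 both without the condition on Trdc and over the deposited classes. mt-Cytb, the complex III subunit, fell from 6743 and 6208 to 1109 and 976 CPM in CD4 cells and from 7801 and 6629 to 1878 and 2743 CPM in CD8 cells (difference 0.97, SE 0.175, adjusted p = 0.0086), and mt-Nd6 was the member called lower (difference -0.46). Of the 37 nuclear complex I subunits, 29 rose in CD8 and 26 in CD4 cells, and 2 were called for the difference, both higher, which is near the share of all genes, against 0 when any 1 of the WT libraries or SDHA-KO replicate 1 was left out. Of 34 subunits of complexes III, IV, and V, 28 rose in CD8 and 17 in CD4 cells, and 4 were called higher, among them Uqcr10 (difference 0.36, adjusted p = 0.010). That count was 0 without WT replicate 1 and 1 without SDHA-KO replicate 1. Of 24 TCA cycle enzymes other than Sdha, 1 was called higher, Idh3b (difference 0.41), and 2 lower, among them Suclg2 (difference -0.55), and without WT replicate 1 none of the 24 was called.

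Most mitotic genes fell in SDHA-KO CD8 cells, and fewer of them in SDHA-KO CD4 cells. Of 41 tested members, 22 were called lower for the difference and 2 higher, with a median of -0.44. In CD8 cells, 25 fell and 4 rose with the loss of SDHA, and in CD4 cells 7 fell and 4 rose. Mki67, the proliferation marker, stood at 226 and 227 CPM in WT CD4 cells, 228 and 177 in SDHA-KO CD4 cells, 249 and 255 in WT CD8 cells, and 138 and 138 in SDHA-KO CD8 cells (difference -0.70, SE 0.109, adjusted p = 0.0046). Kif11, the motor that separates spindle poles, fell from 80.5 and 76.6 to 50.5 and 46.4 CPM in CD8 cells and overlapped in CD4 cells, at 80.2 and 76.8 against 89.8 and 74.0 CPM (difference -0.76, adjusted p = 0.0019). Top2a, topoisomerase II α, went from 448 and 402 to 240.3 and 218 CPM in CD8 and from 419 and 413 to 379 and 309.5 CPM in CD4 cells (difference -0.61, adjusted p = 0.0025). Cdc20 and Cenpa were the 2 called higher, and Cdc20, the activator of the anaphase-promoting complex, rose in CD8 cells from 58.8 and 58.5 to 77.4 and 91.2 CPM.

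Without WT replicate 1, 14 mitotic genes were called lower, and without SDHA-KO replicate 1 there were 12. The counts also depended on which cells were counted as CD8. Without the condition on Trdc, 7 mitotic genes were called higher and 10 lower, and over all cells of the deposited classes 12 were called higher and 4 lower, at a median of -0.03. For the strict cells they were 1 higher and 18 lower under 10% mitochondrial UMIs, and 2 higher and 15 lower within the Tem (effector memory) subsets alone. The Cdc20 difference turned to -0.23 within the Tcm subsets. Of 50 S phase genes, 8 were called lower and 0 higher, against 3 and 0 without WT replicate 1, 3 and 6 without the condition on Trdc, and 2 and 11 over the deposited classes. Among the 8 was Pcna, the replication clamp, which rose in CD4 cells from 222 and 249 to 356 and 366 CPM and stood at 234 and 253 against 294 and 279 CPM in CD8 cells (difference -0.38, adjusted p = 0.013).

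Fewer interferon-stimulated genes rose, and more fell, in SDHA-KO CD8 than in SDHA-KO CD4 cells. Of 40 tested, 13 were called lower for the difference and 2 higher (median -0.37), 17 rose and 2 fell in CD4 cells, and 10 rose and 6 fell in CD8 cells. Gbp5, a guanylate-binding protein induced by interferon γ, fell from 36.5 and 30.4 to 17.1 and 15.5 CPM in CD8 cells and stood at 89.3 and 87.0 against 102 and 99.8 CPM in CD4 cells (difference -1.23, SE 0.135, adjusted p = 0.00094). Stat2 fell in both, more in CD8 (difference -1.12, adjusted p = 0.0033), and Isg15 and Ifih1 were the 2 called higher (difference 1.26 and 1.47). Without WT replicate 1 and without SDHA-KO replicate 1, 7 were called lower in each case.

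**Figure D5:**
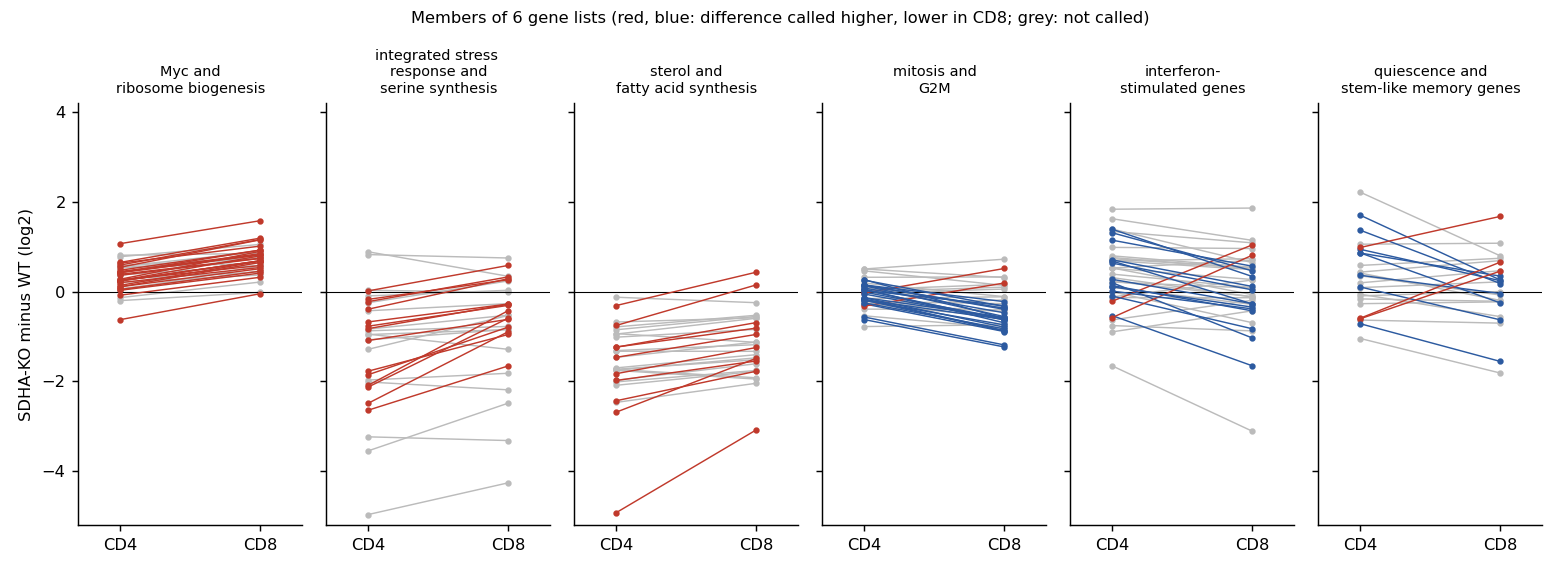
SDHA-KO effect (log2) of each tested member of 6 gene lists in CD4 and in CD8 cells, joined by a line. Red lines were called higher and blue lines lower in CD8 cells, and grey lines were not called. Most ribosome biogenesis lines run upward from CD4 to CD8, most stress response and sterol genes lie below 0 in both, and most mitotic lines run downward.

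Of 25 genes of quiescence and of memory precursors, 11 rose and 3 fell in SDHA-KO CD4 cells, and 8 rose and 4 fell in SDHA-KO CD8 cells. For the difference, 8 were called lower for the difference and 3 higher (median -0.40). Klf2, a transcription factor of resting T cells, went from 14.4 and 12.7 to 50.7 and 37.6 CPM in CD4 cells and overlapped in CD8 cells, at 8.92 and 10.4 against 13.0 and 9.90 CPM (difference -1.46, SE 0.183, adjusted p = 0.0016). Il7r, the interleukin 7 receptor, stood at 30.0 and 38.3 CPM in WT CD4 cells, 105 and 72.3 in SDHA-KO CD4 cells, 58.3 and 63.1 in WT CD8 cells, and 85.2 and 51.4 in SDHA-KO CD8 cells (difference -1.22, adjusted p = 0.00054). Tcf7, which encodes TCF-1, rose in both, more in CD4 cells, from 55.2 and 54.3 to 105 and 94.4 CPM against 48.6 and 43.1 to 54.8 and 62.1 CPM (difference -0.51, adjusted p = 0.028, edgeR). The Tcf7 call was lost with DESeq2, under 10% mitochondrial UMIs, without the top 5% of UMI totals, and without the library block. It was also lost in the Tem and in the Tcm subsets, where the difference was -0.097. Id3, one of the 3 called higher, rose in CD8 cells, from 30.9 and 29.5 to 43.3 and 52.6 CPM (difference 1.31, adjusted p = 0.0017).

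Early transcription factors induced by the T cell receptor rose in CD8 cells in 12 of 23 cases and in CD4 cells in 7. Of these 23, 8 were called higher and 3 lower for the difference. The counts were 3 and 3 with the cell rule at 5000 UMIs per cell, 4 and 3 with DESeq2, and 7 and 6 over the deposited classes. Of 23 costimulatory receptors and activation markers 9 were called higher and 2 lower, although the median of that list was -0.06. Egr1, an immediate early gene, went from 21.7 and 25.6 to 44.8 and 60.2 CPM in CD8 cells and from 38.0 and 39.6 to 35.4 and 34.9 CPM in CD4 cells (difference 1.29, SE 0.151, adjusted p = 0.0012). Within the Tcm subsets the Egr1 difference turned to -0.49, and its call was lost with the cell rule at 5000 UMIs per cell. Egr2 and Egr3 differed by 1.21 and 1.11. Tnfrsf9, the costimulatory receptor 4-1BB, fell in CD4 cells from 534 and 582 to 289 and 264 CPM and overlapped in CD8 cells, at 671 and 826 against 717 and 705 CPM (difference 0.95, adjusted p = 0.00032). Irf4 and Ikzf2 were called lower for the difference (-0.49 and -1.07), as was Icos (-0.77). Ikzf2 rose in both lineages, with log2 effects of 1.84 in CD4 and 0.79 in CD8 cells. Its call was lost under 10% mitochondrial UMIs, in the Tcm and in the Tem subsets, and in the mean of log values per cell. Over all cells of the deposited classes the activation markers turned to 3 higher and 9 lower. Of 17 inhibitory receptors and Tox, 5 were called higher, with Pdcd1 first, and 2 lower, Lag3 (difference -0.87, adjusted p = 0.0019) and Ctla4 (difference -0.79). Over the deposited classes this list had 3 higher and 5 lower, at a median of -0.22.

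Effector genes were mixed. Of 24 granule and cytotoxicity genes, 5 were called higher and 3 lower, and over the deposited classes 3 higher and 5 lower. Prf1, the gene for perforin, rose in CD8 cells from 58.1 and 80.1 to 109 and 118 CPM and lay under 2.05 CPM in all CD4 sums (difference 1.48, SE 0.295, adjusted p = 0.013). Its log2 effect was 0.72 in CD8 cells. The CD4 effect of -0.745 was not called and rests on 20 and 32 UMIs in WT and 19 and 16 in SDHA-KO. The Prf1 call was lost over the deposited classes, under 10% mitochondrial UMIs, in the Tcm and in the Tem subsets, and without the library block. Gzmb had a difference of 0.11 (SE 0.0667, adjusted p = 0.34), and was called in neither lineage. Of 22 type 1 cytokines, chemokines, and their receptors, 4 were called higher and 5 lower, against 6 and 3 without WT replicate 1. Ifng, the gene for interferon γ, rose in both lineages, at 25.0 and 72.2 CPM in WT CD4 cells, 413 and 95.6 in SDHA-KO CD4 cells, 906 and 1243 in WT CD8 cells, and 4172 and 2673 in SDHA-KO CD8 cells. Its difference of -0.52 (SE 0.428, adjusted p = 0.49, edgeR) was not called, with libraries of a group far apart and values from -1.47 to 2.06 over the alternatives on summed UMIs. Over the 22 alternatives, among them the fits with a library left out, the Ifng difference was called with a negative sign in 3. It was called with a positive sign in the mean of log values per cell. Tnf fell in CD4 cells, from 36.8 and 38.9 to 17.5 and 24.6 CPM, and its SDHA-KO CD8 sums lay on either side of WT at 24.8 and 57.8 CPM (difference 1.21, adjusted p = 0.0046). Xcl1, a chemokine of CD8 cells, rose from 259.6 and 218 to 913 and 2165 CPM in CD8 cells and from 6.78 and 4.90 to 9.62 and 17.2 CPM in CD4 cells (difference 1.46, adjusted p = 0.0012). Il12rb2, a chain of the interleukin 12 receptor, rose in CD4 cells, from 105 and 124 to 303 and 220.5 CPM, and had a log2 effect of 0.12 in CD8 cells that was not called (difference -1.09, adjusted p = 0.00052). Tbx21, the type 1 master regulator, showed no call in either lineage and a difference of 0.01 (SE 0.149, adjusted p = 0.98).

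Helper cytokines of other types were scarce in WT cells and uneven between SDHA-KO libraries. Of 20 in the list, 5 were called lower and 1 higher, at a median of -0.84, with 3 lower without WT replicate 1. Over the deposited classes 2 were called lower and 6 higher, at a median of 0.19. With DESeq2, 1 was called lower and 0 higher. The cell rule at 5000 UMIs per cell and the mean of log values per cell each gave 1 lower and 1 higher. Their medians were -0.29 and -0.0075, the latter on another scale than log2 ratios of sums. Il4 stood at 1.06 and 1.33 CPM in WT CD4 cells, 14.9 and 4.83 in SDHA-KO CD4 cells, 0.830 and 1.56 in WT CD8 cells, and 1.20 and 0.206 in SDHA-KO CD8 cells (difference -3.78, SE 0.526, adjusted p = 0.0027), and Il22 reached 16.7 and 10.4 CPM in SDHA-KO CD4 cells and 1.54 and 0.412 CPM in SDHA-KO CD8 cells, from at most 0.259 CPM in a WT sum. Il17a was at 0 UMIs in all 4 WT sums, at 175 and 4.78 CPM in SDHA-KO CD4 cells, and at 1.54 and 0.413 CPM in SDHA-KO CD8 cells, and no difference of effects can be given where both WT groups hold none. Il2, the T cell growth factor, was at 125 and 98.5 CPM in WT CD4 cells, 83.3 and 84.6 in SDHA-KO CD4 cells, 41.6 and 4.84 in WT CD8 cells, and 5.82 and 23.5 in SDHA-KO CD8 cells, and its difference of -0.10 (SE 0.823, adjusted p = 0.96) was not called.

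Of 27 genes of the Bcl-2 family and cell death, 19 rose in CD8 and 21 in CD4 cells, and 2 were called higher and 3 lower, among the latter the survival gene Bcl2, at 528 and 546 CPM in WT CD4 cells, 389 and 266 in SDHA-KO CD4 cells, 908 and 903 in WT CD8 cells, and 349 and 266 in SDHA-KO CD8 cells (difference -0.83, SE 0.0761, adjusted p = 0.00041). Of 29 antioxidant genes, 3 were called higher and 1 lower, Prdx4 (difference -0.77). Of 25 ER chaperone and unfolded protein response genes, 1 was called, Edem1 (difference -0.56), which is under the share of all genes. Without the condition on Trdc, 10 of these 25 were called higher and 1 lower, and over the deposited classes 19 and 1. Of 26 chemokine receptors, integrins, and adhesion genes, 2 were called higher and 5 lower, against 2 and 3 without SDHA-KO replicate 1. In the IL-2 axis, 1 of 17 was called higher, Stat5a, at 57.8 and 67.7 CPM in WT and 117 and 102 CPM in SDHA-KO CD8 cells (difference 0.74, adjusted p = 0.0017), and 3 lower, the latter 5 without SDHA-KO replicate 2. Over the deposited classes the cell death list had 3 higher and 13 lower, and the antioxidant list 11 higher and 2 lower.

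Because members of some lists moved together, the window from 250 bases before to 50 bases after each RefSeq start (GRCm38.p6, the patch release of mm10) was searched on both strands for 1 short motif per list. The E-box CACGTG, bound by Myc and other factors, was in 10 of the 35 windows of tested ribosome biogenesis genes (28.6%) and in 7.15% of all 32851 windows. TGATGNAA, the core of the element bound by ATF4 and its partners, was in 9 of 30 windows of the stress response list (30%) and in 3.97% of all. TTTGAA, the element of genes expressed in mitosis, was in 27 of 36 windows of the mitosis list (75%) and in 17.9% of all. The core of the interferon-stimulated response element, a pair of GAAA runs with any 2 bases between them, was in 17 of 37 windows of the interferon list (45.9%) and in 3.44% of all. These lists were built from genes known to belong to such programs, so the shares describe the lists and not the response to SDHA loss. A match is a run of letters and not a shown site.

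For each list the called member with the largest difference of at least 20 CPM and a match is shown 5′ to 3′ on the strand of its gene, with the motif in capitals on either strand, to set the sequence beside the values above:
Tsr1, chr11:74897830-74898129, plus strand: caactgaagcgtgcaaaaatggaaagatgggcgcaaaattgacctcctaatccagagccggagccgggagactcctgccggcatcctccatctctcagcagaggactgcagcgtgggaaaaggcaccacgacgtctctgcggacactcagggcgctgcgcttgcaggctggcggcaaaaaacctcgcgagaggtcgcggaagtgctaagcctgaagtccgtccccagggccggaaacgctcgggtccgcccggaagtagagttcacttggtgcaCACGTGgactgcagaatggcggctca
Asns, chr6:7693160-7693459, minus strand: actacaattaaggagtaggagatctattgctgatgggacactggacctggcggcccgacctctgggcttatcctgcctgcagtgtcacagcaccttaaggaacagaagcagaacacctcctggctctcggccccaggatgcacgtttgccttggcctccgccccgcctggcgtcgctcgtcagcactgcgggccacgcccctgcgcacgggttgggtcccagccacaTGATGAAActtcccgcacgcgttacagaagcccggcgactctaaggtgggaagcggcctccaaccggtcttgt
Kif11, chr19:37376132-37376431, plus strand: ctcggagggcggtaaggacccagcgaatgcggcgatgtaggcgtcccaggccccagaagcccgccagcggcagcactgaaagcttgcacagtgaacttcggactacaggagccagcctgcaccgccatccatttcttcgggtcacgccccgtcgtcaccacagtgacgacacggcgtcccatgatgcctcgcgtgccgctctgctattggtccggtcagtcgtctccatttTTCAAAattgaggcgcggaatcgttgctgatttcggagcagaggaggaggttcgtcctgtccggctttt
Gbp5, chr3:142496684-142496983, plus strand: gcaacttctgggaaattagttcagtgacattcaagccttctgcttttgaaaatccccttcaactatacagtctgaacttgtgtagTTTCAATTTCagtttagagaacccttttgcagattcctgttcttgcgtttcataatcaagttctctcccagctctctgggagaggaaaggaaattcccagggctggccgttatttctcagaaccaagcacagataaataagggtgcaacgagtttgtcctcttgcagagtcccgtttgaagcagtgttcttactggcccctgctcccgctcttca

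Tsr1, a factor of the small ribosomal subunit, carries its E-box within the last bases of the window and had log2 effects of 0.11 in CD4 and 0.65 in CD8 cells (difference 0.55, adjusted p = 0.019). In Kif11 the match lies on the opposite strand, as TTCAAA, and in Gbp5 as TTTCAATTTC. Of the list members called in the direction of their list, 6 of 21 ribosome biogenesis genes with a window held the motif, 4 of 11 of the stress response, 15 of 19 of mitosis, and 6 of 10 of the interferon list. Counted by gene in the same way, all tested members gave 9 of 32, 9 of 26, 25 of 34, and 17 of 31. The shares of the called members lie near these.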

How the data were processed

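Libraries of the 10x Genomics Chromium 3′ HT kit were made by the authors, who demultiplexed them with bcl2fastq and aligned and counted reads with Cell Ranger against mm10 (per the labels; versions are not given in the sources used here). They merged the libraries in Seurat 4.2.0, removed stimulated cells above 8000 detected genes and clusters without CD3 transcripts, and deposited raw UMI counts of 20170 genes in 12846 cells. Their cell table holds UMIs and genes per cell as counts, the percentage of mitochondrial UMIs as a percent, a log10 ratio of Cd4 to Cd8a, and the class and subset of each cell, which the authors gave to clusters. Totals were checked against the matrix and 0 cells differed. No doublet caller was run here, and none is stated in the sources used here.

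UMIs were summed per library and class. In edgeR 4.0.16, genes that passed filterByExpr (a minimum count of 10 and of 15 in all) were scaled by TMM and tested with glmQLFit and glmQLFTest. The difference of the SDHA-KO effect was the class by genotype term with library as a block over 8 sums, with a common dispersion of 0.00237, a spread of 4.87%. Each class was also fitted alone over 4 sums. Alternatives used DESeq2 1.42.0, limma 3.58.1, other scalings, filters, and cell rules. The scripts were tested on simulated data. Named genes were Sdha, the 12 called genes with the largest difference in each direction at 20 CPM or more whose log2 CD8 to CD4 ratio did not overlap between SDHA-KO and WT libraries, the 6 largest in each direction called in opposite directions, the largest called member of each list in each direction, and 14 genes of T cell function. Other list members named in the text were chosen after their values were seen. Members and lists, written by hand, were chosen with earlier results of these data known. Positions and promoter windows are from RefSeq (GRCm38.p6), which held 12818 of the 13734 tested symbols. R 4.3.3, Python 3.11.15, numpy 2.4.6, scipy 1.17.1, pandas 2.3.3, and matplotlib 3.10.9 were used. Results for some genes are not reported here.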

Additional observations from a re-analysis of the deposited data

Results flagged for a closer look

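The test of the difference itself set 1432 genes apart between strict CD8 and strict CD4 cells, and 59 of these were called in opposite directions in the classes. Of the named genes with the largest differences, those with a higher SDHA-KO effect in CD8 cells were Nrn1 at 2.86 on the log2 scale, Tnfsf11 at 1.96, Plek at 1.95, Rgs16 at 1.95, Pcyt1a at 1.87, Pdcd1 at 1.71, Lta at 1.60, Mt1 at 1.59, Asns at 1.52, Mpzl3 at 1.52, Setbp1 at 1.52, and Rgs1 at 1.5. Hacd1 at 1.43, Nr4a2 at 1.34, and Hivep3 at 1.20 joined them for their opposite directions.

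Those with a lower SDHA-KO effect in CD8 cells, whatever their level, were Il13 at -3.50, St6galnac3 at -2.75, Ms4a4c at -1.83, Tmem108 at -1.79, Castor1 at -1.70, St8sia4 at -1.51, Susd3 at -1.48, Ifngr1 at -1.46, Adam19 at -1.39, Arhgef18 at -1.30, H2-DMa at -1.28, and Ctsw at -1.25. Cd2 at -1.20 and Mgst2 at -1.11 were added for their opposite directions.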

How the results depend on the processing

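The 1432 genes called for the difference were 566 with DESeq2, 823 where the cell rule was applied at 5000 UMIs per cell, 909 in cells under 10% mitochondrial UMIs, 730 in the Tem subsets alone, 19 in the Tcm subsets alone, where the SDHA-KO CD8 libraries hold few cells, and 306 without the library block. They were 2372 without the condition on Trdc and 3277 over the deposited classes. Leaving out 1 library gave between 844 (without WT replicate 1) and 1490 genes, and 911 without SDHA-KO replicate 1. The cause of these shifts was not tested. The 5690 genes called in CD8 cells were 3286 under 10% mitochondrial UMIs, 1325 in Tcm, and 3238 in Tem subsets, and between 2835 (without SDHA-KO replicate 1) and 4482 with 1 library left out. They were 3112 without SDHA-KO replicate 2. The 5416 genes called in CD4 cells were 3608 with DESeq2, 3589 under 10% mitochondrial UMIs, 2301 in Tcm, and 3418 in Tem subsets, and between 3427 (without WT replicate 1) and 5239 with 1 library left out. The 59 opposite changes were 24 with DESeq2, 37 without a filter on low counts, 127 over the deposited classes, 95 without the condition on Trdc, 38 at 5000 UMIs per cell, 7 in Tcm, and 38 in Tem subsets, and between 22 and 36 with 1 library left out. Of SDHA-KO cells, 57.7% of the CD4 and 35.1% of the CD8 class met the rule on average. The CD4 share was 39.7% at 5000 UMIs per cell and 62.7% without the condition on Trdc, and the CD8 share without it was 54.7%.

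The sign of the difference turned for Il13 (0.048 in mean log values, 1.31 over the deposited classes), Ldhb (-0.051 and -0.20 there), and, over the deposited classes, Slc16a3 (0.083), Ndrg1 (-0.22), and Ndufa7 (-0.0028). In the Tcm subsets it turned for Egr1 (-0.49) and Cdc20 (-0.23). Of the genes not called, the sign turned with a call under the alternative for Ifng and Il2: Ifng turned to 0.49 and Il2 to 0.12 in mean log values, and Il2 to 2.02 without the top 5% of UMI totals. Mean log values are on another scale than log2 ratios of sums, so only their sign is set beside the others. With 1 library left out Il2 ran from -1.40 without SDHA-KO replicate 2 to 1.74 without WT replicate 1. Without a call on either side, Ifng reached 2.06 and Slc2a1 -0.65 in the Tcm subsets, Tbx21 ran from -0.49 in the Tcm subsets to 0.43 over the deposited classes, and Gzma turned to -2.04 there. St6galnac3, Ms4a4c, and H2-DMa were called in the same direction under all 22 alternatives. Of the 72 named genes, Sdha, Ifng, Il2, Gzmb, Gzma, Slc2a1, Tbx21, and Il17a had no call to lose. Among the others, 54 kept their sign but lost their call in the Tcm subsets, and 33 did so without the library block. In the Tem subsets 11 did so, in cells under 10% mitochondrial UMIs 10, and with DESeq2 9. Ndrg1, Ndufa7, Idh3b, Slc16a3, and Il13 lost their call under the most alternatives. Samples with the same replicate number did not deviate together (r = 0.0021 in CD4 and -0.034 in CD8 sums across genes), so the numbers were not taken as pairs. With the replicate number as a block, 1750 genes were called for the difference, 5435 in CD8 cells, 5757 in CD4 cells, and 73 in opposite directions. In the smallest sum, genes under 20 CPM rest on fewer than 98.4 UMIs.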
